A study of Mus musculus with 2 samples.

Results

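The genes of the MHC class II pathway were followed through the cell classes of a mouse lung single-cell RNA sequencing data set. The set holds 7 of the 32285 genes in the count matrices: the chain genes H2-Aa, H2-Ab1 and H2-Eb1, the peptide editor genes H2-DMa and H2-DMb1, the invariant chain gene Cd74 and the transactivator gene Ciita. They were chosen by name, with the levels of class II genes in the macrophages of these same libraries already known. All values below are therefore descriptions. MHC class II molecules present peptides from endocytosed protein to CD4+ T cells. An alpha and a beta chain pair in the endoplasmic reticulum, the invariant chain fills the groove and guides the pair to endosomes, and H2-DM then exchanges the last invariant chain fragment for an antigen peptide. Dendritic cells, B cells and many macrophages carry these molecules, their transcription depends on the co-activator CIITA, and alveolar macrophages in the resting lung are known for carrying little of them.

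The study deleted Nfe2l2, which encodes the stress-response transcription factor NRF2, in T cells and screened for pathways under its control. One library is labelled Nfe2l2fl/fl, the floxed control without Cre, and 1 is labelled Cd4cre Nfe2l2fl/fl. Both groups carry the floxed Nfe2l2 allele, and Cd4cre drives recombination from Cd4 regulatory sequences, which act in T cells. Per the labels the material was lung CD4+ cells of mice aged 8 to 15 weeks, taken 16 h after the last airway dose and captured with 10x Genomics 5′ reagents. The labels describe more than 1 airway inflammation model without saying which one was used here, and give neither the number of mice nor the deleted exons. With 1 library per group there was no replicate and no test. Every interval below is a 95% interval for counting error only and says nothing of the spread between mice.

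The control library held 5433 barcodes that passed the cell filter (median 6258 UMIs) and the Cd4cre library 6306 (median 5093 UMIs). Both libraries shared 49 barcode sequences. Nfe2l2 itself was at 31.9 CPM (UMIs of a gene per 1000000 UMIs of the cell class) in control T cells and at 173 CPM in those of the library labelled Cd4cre Nfe2l2fl/fl, a log2 ratio of 2.44 (2.35 to 2.53). The targeted gene was thus higher where the label would have it deleted. Because the reads come from 5′ ends and the deleted exons are not given, these counts do not show whether the deletion took place. Nor do they show whether files and labels match, so the direction of every ratio of Cd4cre over control below rests on the labels, by which each library is named.

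Cells were assigned to classes by UMIs of marker genes that are not class II genes. Chil3-high macrophages had no UMI of Cd3d, Cd3e or Cd3g, at least 3 UMIs of the lysozyme gene Lyz2 and at least 10 of Chil3, a chitinase-like gene of alveolar macrophages. Chil3-low macrophages met the same conditions with fewer than 10 Chil3 UMIs. Tgfbi/Ccl24 cells had no CD3 UMI and at least 2 UMIs of the monocyte and macrophage genes Tgfbi and Ccl24 together, and most of them also fell into a macrophage class. Siglech cells had no CD3 UMI and at least 2 of Siglech, which marks plasmacytoid dendritic cells. T cells had at least 2 CD3 UMIs and no Lyz2 UMI and served as a rough measure of free RNA and of stray myeloid material. RNA made by T cells themselves counts toward this measure, and the Lyz2 condition leaves out T cell barcodes that carry Lyz2.

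The macrophage and Tgfbi/Ccl24 classes made up larger shares of the Cd4cre library. Chil3-high macrophages numbered 226 and 568 cells (4.16% and 9.01% of the library), Chil3-low macrophages 34 and 352 (0.626% and 5.58%) and Tgfbi/Ccl24 cells 259 and 1261 (4.77% and 20.0%), in the control and the Cd4cre library. Siglech cells numbered 43 and 63 (0.791% and 0.999%), with overlapping intervals (0.573 to 1.06 and 0.769 to 1.28). T cells numbered 4788 and 4409. In Chil3-high macrophages all 12 fixed macrophage markers and all 8 alveolar macrophage markers were detected in both libraries. Detection alone does not set the class apart, because 8 and 7 of the alveolar markers were also detected in T cells. Over 2-fold their T cell level were 11 and 12 macrophage markers and 7 and 6 alveolar markers, with the class-defining Lyz2 and Chil3 in these lists. In Chil3-low macrophages 4 of the 8 alveolar markers were at 0 in the control library, Siglecf and Marco among them, and these same 2 genes were at 0 in the Cd4cre library. All 8 plasmacytoid markers were detected in Siglech cells, at summed levels of 15728 and 15572 CPM. Without the class-defining Siglech the sums were 13547.5 and 13409 CPM. All 8 were detected in T cells too, at lower sums of 331 and 441 CPM. The label of the sample is CD4+ cells, yet Cd4 was at 10.6 and 2.95 CPM in Chil3-high macrophages against 264 and 345 CPM in T cells and 225 and 241 CPM in Siglech cells. Nfe2l2 was higher in the Cd4cre library outside T cells too, at 61.7 and 199 CPM in Siglech cells (log2 ratio 1.69, 0.98 to 2.47). Its log2 ratio was 0.44 (0.11 to 0.78) in Chil3-high and 0.33 (-0.34 to 1.08) in Chil3-low macrophages. It was 0.54 (0.25 to 0.84) in Tgfbi/Ccl24 cells and -1.46 (-2.91 to 0.02) in B cells.

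Of the 7 members, 5 lie close together on mouse chromosome 17. On GRCm38 (GENCODE M21) H2-DMa spans chr17:34119541-34139101, H2-DMb1 chr17:34153072-34160230, H2-Ab1 chr17:34257689-34269419 and H2-Eb1 chr17:34305867-34316674, all on the plus strand. H2-Aa spans chr17:34282744-34287823 on the minus strand. Ciita lies on another chromosome (chr16:10480059-10528418, plus strand), as does Cd74. Class II promoters are known for a shared block read by the RFX, CREB and NF-Y factors, of which the Y box is the NF-Y site. The stretches before the RefSeq start sites (GRCm38.p6) are shown here because the chain genes had like ratios between the libraries in Chil3-low macrophages. Their ratios were less alike in Chil3-high macrophages. H2-DMa stood apart in T cells by its spread over many cells. No link between letters and levels was tested. Capitals mark matches, on either strand, to the Y box CTGATTGG, to its core ATTGG, and to X box forms given below.

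H2-Aa, chr17:34287824-34287973, minus strand, -150 to -1: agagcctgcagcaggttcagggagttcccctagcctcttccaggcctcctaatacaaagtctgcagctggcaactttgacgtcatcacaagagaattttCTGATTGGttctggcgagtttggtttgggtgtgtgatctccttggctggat
H2-Eb1, chr17:34305717-34305866, plus strand, -150 to -1: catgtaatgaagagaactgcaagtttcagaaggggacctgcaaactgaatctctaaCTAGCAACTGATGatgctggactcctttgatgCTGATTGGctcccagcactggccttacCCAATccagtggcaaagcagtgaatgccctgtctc
H2-DMb1, chr17:34153085-34153114, plus strand, -106 to -77: gaggtttaCCTAGTAACTGATGatgctagg
H2-DMa, chr17:34122682-34122831, plus strand, -150 to -1: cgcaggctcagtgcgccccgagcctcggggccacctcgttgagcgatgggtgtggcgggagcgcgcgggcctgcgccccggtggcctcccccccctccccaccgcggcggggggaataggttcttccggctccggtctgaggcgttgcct

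The full Y box CTGATTGG began at -51 in H2-Aa and at -62 in H2-Eb1, and 4.10% of the 32851 promoters of 300 bases in the RefSeq table hold it. An X box form with free bases, matched by CCTAGTAACTGATG at -98 in H2-DMb1, is held by 0.0609% of all promoters. A shorter form that overlaps it and was chosen after the sequences were seen, matched by CTAGCAACTGATG at -94 in H2-Eb1 and by CTAGTAACTGATG at -97 in H2-DMb1, is held by 0.0244%. The core ATTGG, which 37.4% of promoters hold, lay at -61 in H2-DMb1 and, on the minus strand, at -35 in H2-Eb1. None of these letters occurred in the upstream H2-DMa window, whose start site lies 198 bases from the first transcribed base of the divergent gene Brd2. A second H2-DMa window of the table held the core at -198. GENCODE also lists protein-coding H2-DMa transcripts that start further downstream, at chr17:34135628 and chr17:34135654. The bases before those starts were not searched, so these windows do not show whether H2-DMa lacks the letters. GENCODE starts H2-DMb1 at chr17:34153072, upstream of the stretch shown, so the positions given for H2-DMb1 hold for the RefSeq start only. A match is a description of letters and not a binding site. Ciita overlaps Dexi and H2-Eb1 overlaps the antisense model Gm20513, each on the opposite strand, and H2-DMb1 can share reads with its close copy H2-DMb2, so small counts of these genes carry that doubt.

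The classes fell into a clear order of class II level in the control library. The 7 members summed to 224 CPM in T cells, 2262 CPM in Chil3-high macrophages, 14790.3 CPM in Siglech cells and 14877 CPM in Chil3-low macrophages. The last 2 values had overlapping counting intervals (14375 to 15215 and 14149 to 15632). In the Cd4cre library the order was T cells at 370.1 CPM, Chil3-high macrophages at 5984, Siglech cells at 17103 and Chil3-low macrophages at 21432. Here no neighbouring intervals overlapped. The few B cells (14 and 36), shown for comparison, held more than any of these, at 40689.8 and 30979 CPM.

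Relative to T cells of the same library, all 6 members with at least 50 UMIs were past 1.5-fold in each of the 4 non-T classes of the control library, and all 7 in the Cd4cre library. The share of all genes past that fold was 22.7% and 21.8% in Chil3-high macrophages, 36% and 22.5% in Chil3-low macrophages, 23.8% and 23.5% in Tgfbi/Ccl24 cells and 29.2% and 26% in Siglech cells. The classes were chosen for this contrast, so nothing is read from these counts. The summed level in Chil3-high macrophages was 10.1-fold (9.57 to 10.6) and 16.2-fold (15.8 to 16.6) that of T cells. Both macrophage classes therefore lay far above the T cell level for the set as a whole. That level is not free RNA alone, because Cd74 differed between T cell subsets and H2-DMa was spread over many T cells (below). Chil3-high macrophages also had fewer UMIs per cell, at medians of 2674 and 3328 against 6510.5 and 5666 in T cells. The part of free RNA in the macrophage levels was not tested. Among members with at least 50 UMIs the margin over T cells was smallest for H2-DMa, at 3.61-fold and 5.16-fold in Chil3-high macrophages.

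**Figure D1:**
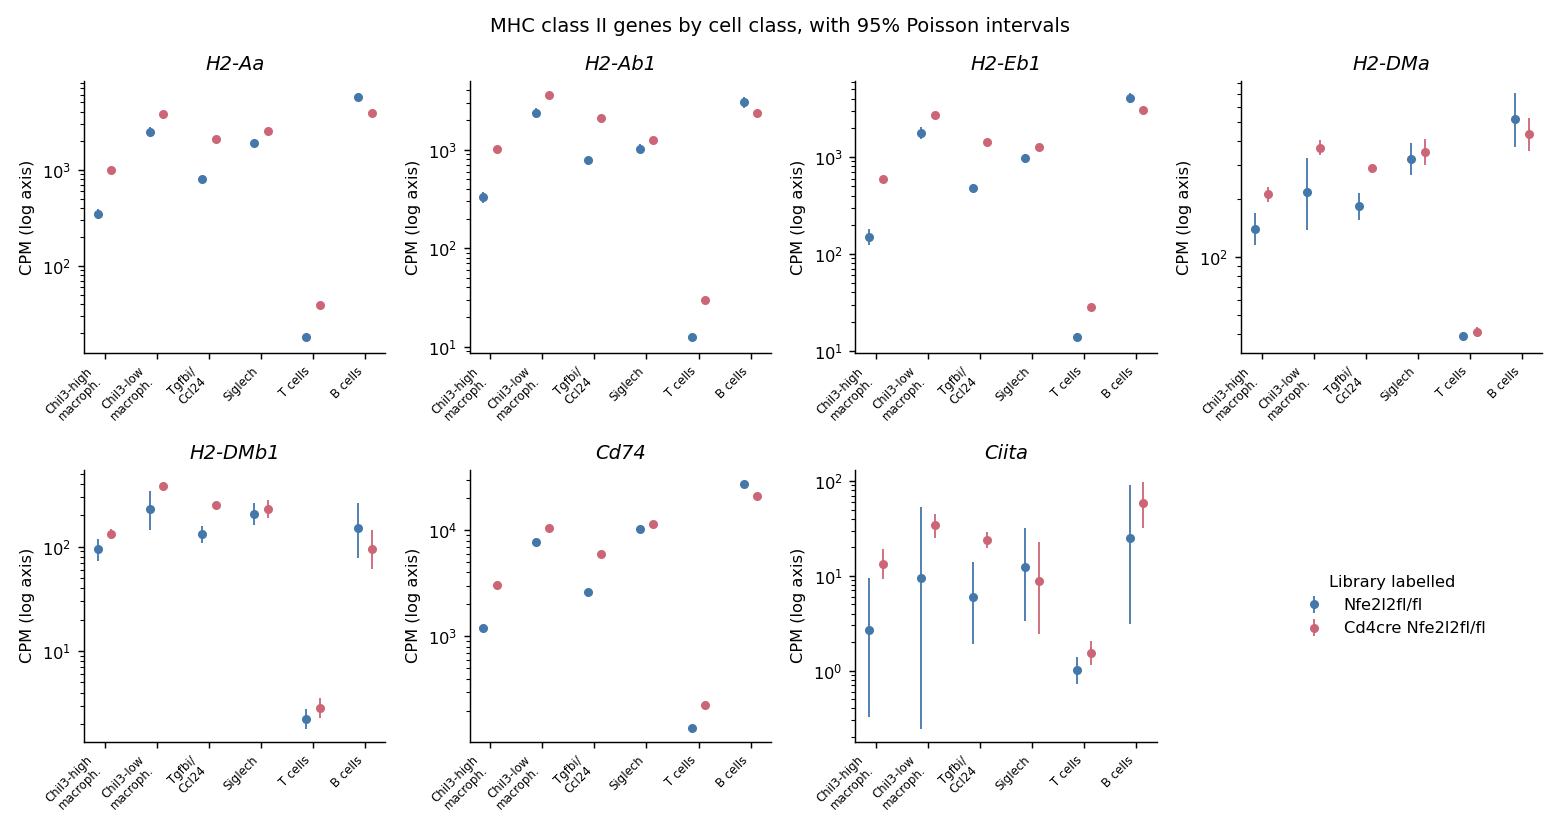
Level of each member (CPM, log axis) in 6 cell classes of the Nfe2l2fl/fl and the Cd4cre Nfe2l2fl/fl library, 1 panel per gene, with exact Poisson 95% intervals. H2-Ab1 runs from 12.6 CPM in control T cells to 3623 CPM in Chil3-low macrophages of the Cd4cre library, while H2-DMa runs over a narrower range from 39.0 CPM in control T cells.

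In Chil3-high macrophages the chain genes were 2.80-fold to 4.00-fold higher in the Cd4cre library than in the control. H2-Aa, the I-A alpha chain, was at 351 CPM (309 to 395) in the control and 982 (943 to 1023) in the Cd4cre library, a log2 ratio of 1.49 (1.30 to 1.68). H2-Ab1, its beta chain partner, was at 329 (289.6 to 373) and 1013 CPM (973 to 1054), a log2 ratio of 1.62 (1.43 to 1.82). H2-Eb1, the I-E beta chain, was at 149 (122 to 179) and 594 CPM (564 to 626), a log2 ratio of 2.00 (1.72 to 2.29). The counting intervals of the libraries did not overlap for any chain gene. The invariant chain gene Cd74 followed, at 1196 (1119 to 1277) and 3037 CPM (2967 to 3108), a log2 ratio of 1.34 (1.24 to 1.45).

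The editor genes differed less than the chains in these cells. H2-DMa was at 141 and 212 CPM (log2 ratio 0.59, 0.29 to 0.91). H2-DMb1 was at 94.3 and 132 CPM (0.48, 0.11 to 0.88). Their intervals do not reach the log2 ratio of any chain gene. Ciita, the co-activator that the chain, editor and invariant chain genes depend on, rested on 2 control UMIs and 32 Cd4cre UMIs. Its log2 ratio of 2.34 had an interval from 0.37 to 5.45, so its size is not resolved at this depth.

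Of the 6 members with at least 50 UMIs in Chil3-high macrophages, 5 were past 1.5-fold higher and none lower, where 12.4% of all 5578 genes were past 1.5-fold higher and 6.45% lower. The median log2 ratio was 1.41 over these members and 0.07 over all genes, whose 95th percentile was 0.88. H2-DMb1 was the member that stayed within 1.5-fold. The members were picked for their levels in macrophages, so the count is not independent evidence.

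Chil3-low macrophages carried far more class II RNA in both libraries and differed less between them. H2-Ab1 was at 2365 CPM in the control and 3623 in the Cd4cre library (log2 ratio 0.62, 0.43 to 0.80), H2-Aa at 2460.5 and 3809 (0.63, 0.45 to 0.82) and H2-Eb1 at 1776 and 2710.5 (0.61, 0.40 to 0.83). The 3 chain genes thus shared 1 ratio within counting error. Cd74 was at 7818 and 10504 CPM (0.43, 0.32 to 0.53). H2-DMa was at 218 and 369 CPM and H2-DMb1 at 228 and 382 CPM, with log2 ratios of 0.76 (0.15 to 1.43) and 0.74 (0.16 to 1.40) that overlap those of the chains. Ciita had 1 UMI in the control and 47 in the Cd4cre library (9.5 and 34.1 CPM). Most of these cells also met the Tgfbi/Ccl24 condition (28 of 34 and 329 of 352), and in the few that met no other condition the summed log2 ratio was 3.66 in place of 0.53. Here 5 of 6 members were past 1.5-fold higher and none lower, against 19.5% higher and 15.2% lower over all genes in a class with only 34 control cells. The member median of 0.62 lay within the 95th percentile of all genes, 1.38.

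Within a library, Chil3-low macrophages exceeded Chil3-high macrophages by 6.58-fold (6.14 to 7.05) in the control and 3.58-fold (3.51 to 3.65) in the Cd4cre library for the summed members. Of the members with at least 50 UMIs, 6 of 6 and 7 of 7 were past 1.5-fold, where 16.6% and 7.39% of all genes were. H2-Eb1 showed the widest gap in the control library, at 11.9-fold (9.40 to 15.2), and H2-DMa the narrowest, at 1.55-fold (0.944 to 2.45). In the Cd4cre library H2-DMa was again the member with the narrowest gap, at 1.74-fold (1.53 to 1.97). The chain genes separated the macrophage classes more than the editor genes did, in both libraries.

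Class II level was lower in macrophages with more Chil3, though not evenly so. Macrophages with no Chil3 UMI held 10014 CPM in the control (17 cells) and 26312 in the Cd4cre library (183 cells), and those with at least 100 Chil3 UMIs held 1748 (114 cells) and 3201 CPM (224 cells). The Cd4cre library was higher in 5 of the 6 bins. The exception was the bin of 1 to 2 Chil3 UMIs, with 28768 CPM from 6 control cells and 14913 CPM from 77 cells. MHC class I genes did not show this gradient: H2-K1, H2-D1 and B2m together stayed between 4743 and 7451 CPM in all control bins and between 5497 and 6966 CPM in all Cd4cre bins. Depth differed between bins, with medians from 1692 to 4086 UMIs per cell, and its part in the gradient was not tested.

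**Figure D2:**
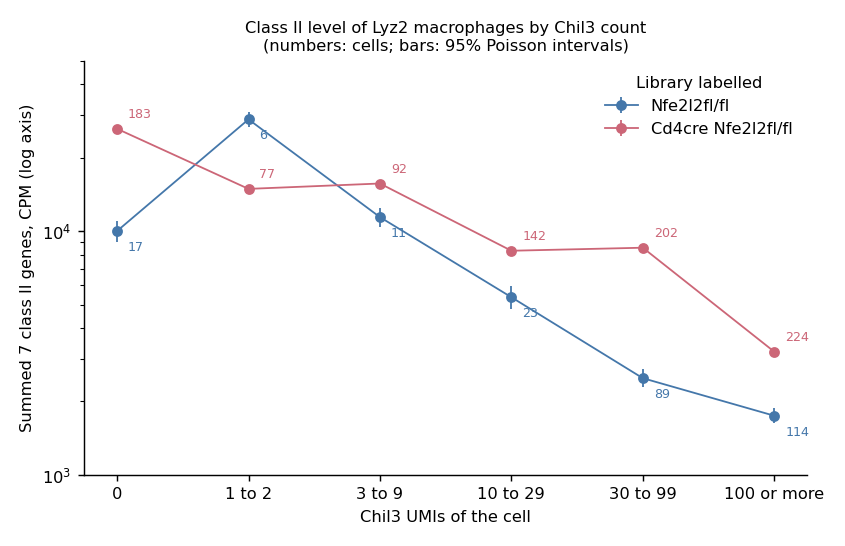
Summed class II level (CPM, log axis) of Lyz2-positive macrophages against their Chil3 UMIs in 6 bins, for both libraries, with Poisson 95% intervals and the number of cells beside each point. The level is lowest at 100 or more Chil3 UMIs, at 1748 CPM in the control and 3201 CPM in the Cd4cre library, and the control point from 6 cells lies above the others.

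Tgfbi/Ccl24 cells showed the difference in all 7 members. H2-Aa was at 798 and 2109 CPM, H2-Ab1 at 787 and 2119 and H2-Eb1 at 479.7 and 1427 CPM, with log2 ratios of 1.40, 1.43 and 1.57. Cd74 was at 2643 and 6015 CPM (1.19, 1.12 to 1.25). Invariant chain RNA again differed slightly less than the chains it serves. H2-DMa (184 and 288 CPM) and H2-DMb1 (131 and 249.9 CPM) had log2 ratios of 0.65 (0.41 to 0.90) and 0.93 (0.64 to 1.22). Ciita had 5 and 108 UMIs, or 5.92 and 23.8 CPM, with a log2 ratio of 2.01 (0.74 to 3.66). All 7 members were past 1.5-fold higher, where 11.4% of all genes were past 1.5-fold higher and 7.44% lower.

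The makeup of the Tgfbi/Ccl24 class moved with this result. Cells with at least 10 Chil3 UMIs made up 77.2% of the class in the control and 51.2% in the Cd4cre library. Among those cells the summed members were at 2964 and 6363 CPM. Among cells with fewer Chil3 UMIs they were at 12874 (59 cells) and 19799 CPM (615 cells). Split in this way, after the data were seen, the log2 ratio was 1.10 and 0.62, against 1.28 for the whole class. In cells that met no macrophage or other condition it was 0.73. The Cd4cre library was higher in each part, and the fold within each part was smaller than over both.

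Siglech cells held a high class II level in both libraries and differed little between them. H2-Aa was at 1906 and 2552 CPM (log2 ratio 0.42, 0.28 to 0.56), H2-Ab1 at 1027 and 1247 (0.28, 0.08 to 0.48) and H2-Eb1 at 971 and 1272 (0.39, 0.19 to 0.59). The chain genes were above their counting error but within 1.5-fold. Cd74 was at 10343 and 11441 CPM (0.15, 0.08 to 0.21). For H2-DMa (324 and 352 CPM) and H2-DMb1 (207 and 230.0 CPM) the intervals, -0.25 to 0.49 and -0.30 to 0.62, include no difference. Ciita had 4 UMIs in each library. None of 6 members was past 1.5-fold in either direction, where 5.96% of all genes were higher and 5.29% lower.

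**Figure D3:**
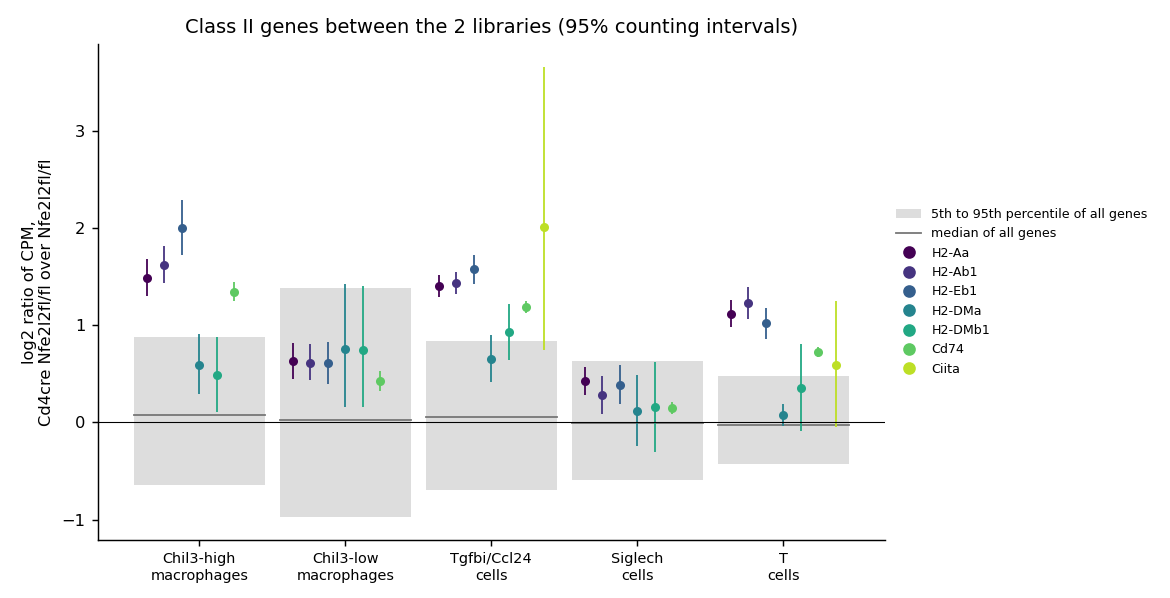
Log2 ratio of CPM, Cd4cre Nfe2l2fl/fl over Nfe2l2fl/fl, for each member with at least 50 UMIs in 5 cell classes, with exact conditional binomial 95% intervals. The grey band spans the 5th to 95th percentile of all genes in the class and the grey line their median. In Chil3-high macrophages H2-Aa, H2-Ab1, H2-Eb1 and Cd74 lie above the band (upper edge 0.88), and in Siglech cells every member shown lies within it.

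The ratio of 1 member to another differed between classes. These ratios are of UMIs, and capture can differ between genes, so they are compared between classes and not read as amounts of protein. Cd74 UMIs were 3.63 and 3.0 times those of H2-Ab1 in Chil3-high macrophages, 3.31 and 2.90 in Chil3-low macrophages, 10.1 and 9.17 in Siglech cells and 8.93 and 9.05 in B cells. H2-Aa UMIs were 1.06 and 0.969 times those of H2-Ab1 in Chil3-high macrophages but 1.86 and 2.05 times in Siglech cells and 1.85 and 1.66 times in B cells. Siglech cells and B cells lay nearer to each other than to the macrophages in these ratios. They differed in the ratio of H2-Eb1 to H2-Ab1, at 0.946 and 1.02 in Siglech cells against 1.34 and 1.33 in B cells. The ratio of H2-DMa to H2-DMb1 also differed, at 1.57 and 1.53 against 3.42 and 4.57. H2-Eb1 was at 0.452 (0.358 to 0.567) of H2-Ab1 in control Chil3-high macrophages and 0.587 (0.549 to 0.627) in those of the Cd4cre library, against 0.751 and 0.748 in Chil3-low macrophages.

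Single cells of each class spread widely. The median Chil3-high macrophage held 6.54 class II UMIs per 10000 in the control and 34.3 in the Cd4cre library. Of these cells, 30.5% and 12% had no class II UMI, and in 3.98% and 21.1% class II made up at least 1% of all UMIs. The 25th percentile was 0 and 6.31 per 10000 and the 75th was 25.4 and 86.9, so the shift was not confined to a few cells. In Chil3-low macrophages the median was 42.2 and 132 per 10000, and 35.3% and 58.2% of cells were at or above 1%. The median Siglech cell held 121 and 128 per 10000, close to each other. Depth differed with library, at median UMIs of 2674 and 3328 in Chil3-high macrophages, so shares of cells were also taken after thinning every cell to 2000 UMIs.

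**Figure D4:**
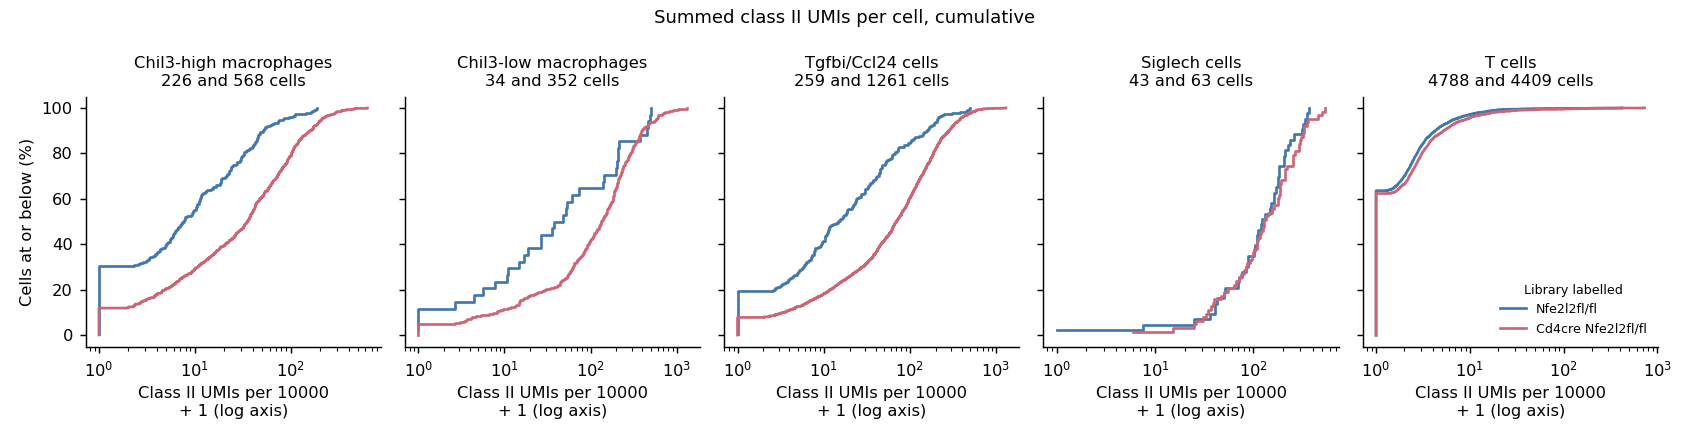
Cumulative share of cells (%) against class II UMIs per 10000 UMIs plus 1 (log axis), 1 panel per cell class and 1 line per library. In Chil3-high macrophages the Cd4cre line lies to the right of the control line over its whole length, from 30.5% and 12% of cells at 0 upward, while the lines of Siglech cells run together through most of their range.

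After thinning, H2-Ab1 was detected in 33.5% (26.2 to 41.5) of control Chil3-high macrophages and 52.5% (47.7 to 57.2) of those in the Cd4cre library, against 35.8% and 60.4% before thinning. In T cells the thinned shares were 0.681% and 1.51%, with median depths of 6510.5 and 5666 UMIs before thinning. The macrophage shares lay far above these T cell shares. Cd74 went from 50.6% to 73.5% of Chil3-high macrophages, with 8.33% and 11.4% of T cells. Ciita was detected in 0.633% and 2.04% of them, with 0.192% and 0.255% of T cells. Thinning left out 68 and 126 Chil3-high macrophages and 92 and 102 T cells. In Tgfbi/Ccl24 cells H2-Ab1 was detected in 37.5% and 68.7%, and in Siglech cells in 54.8% and 62.9% with overlapping intervals (38.7 to 70.2 and 49.7 to 74.8).

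Across single macrophages of 1 class, thinned to the same depth, H2-Ab1 correlated more closely with Cd74 than with a class I gene. Pearson's r of log2 values for H2-Ab1 with Cd74 was 0.56 over 158 control and 0.78 over 442 Cd4cre Chil3-high macrophages, and 0.87 in Chil3-low macrophages of either library (19 and 263 cells). With B2m, the class I light chain gene, r was 0.15 and 0.03 in Chil3-high macrophages and 0.09 and 0.06 in Chil3-low macrophages. With H2-DMb1 it was 0.27 and 0.38 in Chil3-high macrophages. In Siglech cells (42 and 62) r with Cd74 was 0.57 and 0.55, with B2m -0.29 and -0.15, and with H2-DMb1 0.048 and 0.44. No such value was computed for H2-DMa or Ciita. Cells of a class share a library, and these values describe only that library.

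T cells held a low class II level, and the UMIs of the chain genes sat mostly in a few cells. In all T cells H2-Ab1 was at 12.6 and 29.6 CPM (log2 ratio 1.23, 1.07 to 1.39), H2-Aa at 18.2 and 39.4 (1.12), H2-Eb1 at 13.9 and 28.2 (1.02) and Cd74 at 137 and 227 (0.73, 0.67 to 0.78). H2-DMa did not differ beyond counting error, at 39.0 and 41.1 CPM (0.08, -0.03 to 0.18), nor did H2-DMb1 at 2.23 and 2.86 CPM (0.36, -0.09 to 0.81). Ciita had 39 and 47 UMIs (0.59, -0.05 to 1.24). Of 7 members, 5 were past 1.5-fold higher, where 3.71% of all genes were past 1.5-fold higher and 2.61% lower. These counts rest on a small number of barcodes.

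Only 16 of 4788 control T cells and 29 of 4409 Cd4cre T cells had at least 10 UMIs of H2-Aa, H2-Ab1 and H2-Eb1 together, a limit set after the data were seen. They held 89.0% and 90.3% of all H2-Aa UMIs of the T cell class, 70.7% and 84.1% of H2-Ab1 and 44.3% and 57.6% of Cd74. Their median depth was 18189.5 and 11560 UMIs against 6501 and 5659.5 in the other T cells. The myeloid adaptor gene Tyrobp was detected in 11 (68.8%) and 25 (86.2%) of them, against 1.13% and 1.71% of the others. Genes of other cell types were more frequent in them too. The B cell gene Cd79b was detected in 31.25% and 34.5%, against 2.54% and 2.51% of the others. Siglech was detected in 25% and 34.5%, against 0.189% and 0.251%, and Tgfbi in 25% and 34.5%, against 0.105% and 1.35%. Without these cells H2-Aa was at 2.01 and 3.86 CPM and H2-Ab1 at 3.72 and 4.76 CPM, and the summed log2 ratio was 0.25 (0.19 to 0.31) in place of 0.72. Whether these barcodes hold more than 1 cell was not tested.

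**Figure D5:**
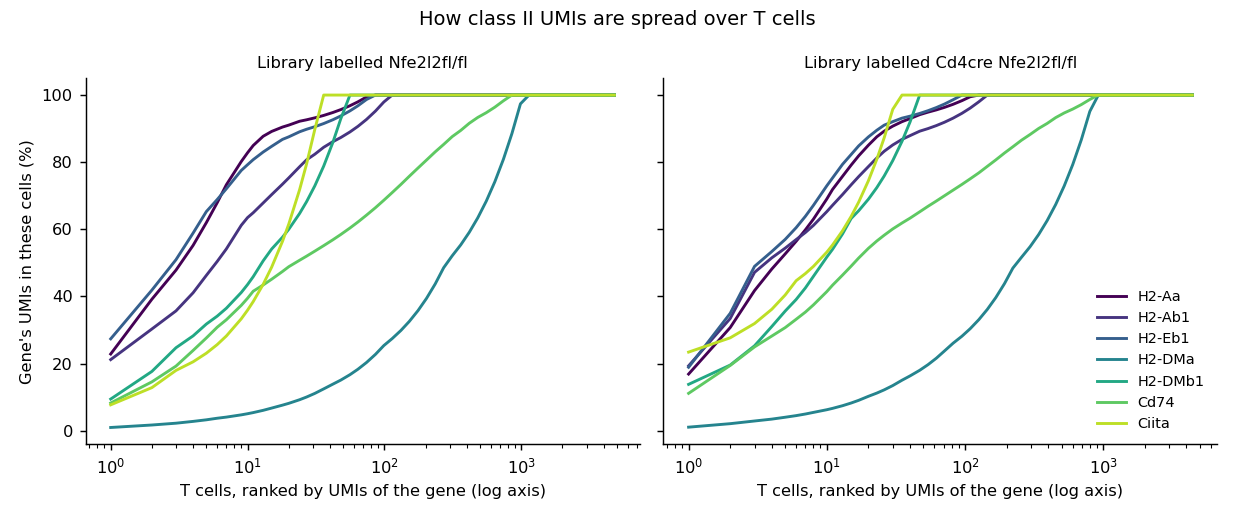
Cumulative share (%) of each gene's UMIs in the T cell class against T cells ranked by that gene (log axis), for both libraries. H2-Aa, H2-Ab1 and H2-Eb1 rise steeply within the first few cells, in a class of 4788 and 4409 cells, while H2-DMa rises slowly over many more cells.

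H2-DMa behaved otherwise in T cells. The class II-rich cells held only 2.69% and 7.11% of its UMIs, it was detected in 21.4% and 19.5% of T cells, and without the rich cells it was still at 38.2 and 38.7 CPM. T cells stood at 17.9% and 11.1% of the Chil3-low macrophage level for H2-DMa, against 0.535% and 0.817% for H2-Ab1. Over T cells H2-DMa UMIs were 17.5 (14.1 to 22.0) and 14.4 (11.6 to 18.1) times those of H2-DMb1, the gene of its obligate partner chain, but 1.49 and 1.61 times in Chil3-high macrophages. The excess was present in both libraries to a like extent. The gene model of H2-DMa overlaps the 5′ end of Brd2 on the opposite strand and other antisense models, and the strand setting of the counting was not given in the sources, so the H2-DMa counts are uncertain. Brd2 was at 149 and 151 CPM in T cells, and its part in the H2-DMa counts was not tested.

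Cd74 also stayed in T cells once the rich cells were removed, at 77.0 and 97.7 CPM, and differed by T cell subset. Cells with a UMI of Foxp3, the regulatory T cell factor, held 252 CPM (239 to 265) in the control and 262 (249.9 to 275) in the Cd4cre library. Cells with a UMI of the cycling marker Mki67 held 76.8 and 79.0 CPM. At least 2 UMIs were asked for the other genes. Such cells held 146 and 107 CPM for the chemokine gene Ccl5, 59.0 and 59.6 for Il17a and 51.9 and 52.9 for the type 2 cytokine gene Il13. Cells below all these minimums, which can hold 1 UMI of Ccl5, Il17a or Il13, held 36.5 (32.7 to 40.6) and 57.9 (52.7 to 63.5) CPM. Foxp3-positive cells thus stood highest in both libraries, and their intervals overlapped no other subset's, although a cell could count in more than 1 subset. H2-DMa ranged only from 28.6 to 42.1 and from 27.4 to 45.1 CPM over the subsets.

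The genes of antigen processing had median log2 ratios near or below 0, unlike the members. Of 11 measured genes of antigen processing, the endosomal proteases and their regulators, none was past 1.5-fold higher in Chil3-high macrophages and 2 were lower, with a median log2 ratio of -0.09. The 2 were the proteases Ctsd (6026 and 2657 CPM, -1.18) and Ctsl (2229 and 1098 CPM, -1.02). Ctss, which cleaves the invariant chain, was at 4326 and 4249 CPM, and the thiol reductase gene Ifi30 at 933 and 1376 CPM (0.56, 0.44 to 0.68). In Chil3-low macrophages 5 of 9 were lower, with Ctsl at 4541 and 378 CPM (-3.59), and the median was -0.61. In Tgfbi/Ccl24 cells 2 of 11 were lower (median -0.25), in Siglech cells 2 of 8 (median -0.22) and in T cells none of 9 (median 0.03), with none higher in any class. Over all genes, 12.4% were past 1.5-fold higher and 6.45% lower in Chil3-high and 19.5% and 15.2% in Chil3-low macrophages. The shares were 11.4% and 7.44% in Tgfbi/Ccl24 cells, 5.96% and 5.29% in Siglech cells and 3.71% and 2.61% in T cells. Counts from these short lists, here and below, are not read as results where they lie near such shares.

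The transcription factors of class II genes, the RFX, NF-Y and CREB subunits with Spi1 and Irf8, had a median log2 ratio of 0.19 in Chil3-high macrophages over 7 genes with at least 50 UMIs. Nfya was the 1 past 1.5-fold, at 0.65 with an interval from -0.09 to 1.47 that includes no difference. Spi1, encoding the myeloid factor PU.1, was at 183 and 263 CPM (0.52, 0.25 to 0.80). Among 12 genes of interferon and IL-4 input 2 were past 1.5-fold higher, the kinase gene Jak2 (61.1 and 115 CPM) and the receptor gene Il10ra (34.5 and 64.8 CPM), and the median was 0.11. No gene of either list was past 1.5-fold lower in this class, where 12.4% of all genes were higher and 6.45% lower. In Chil3-low macrophages 1 of 5 factor genes was higher and 3 lower, and of 11 input genes 3 were higher and 1 lower, while in T cells 1 of 11 and none of 12 were past 1.5-fold. The shares over all genes were 19.5% higher and 15.2% lower in Chil3-low macrophages and 3.71% and 2.61% in T cells.

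Of the costimulatory ligands, which act beside class II on T cells, Cd86 was at 9.29 and 22.3 CPM (1.26, 0.12 to 2.65) and Cd40 at 18.6 and 39.1 CPM (1.07, 0.26 to 2.00) in Chil3-high macrophages, the 2 of 5 genes past 1.5-fold. Over all genes 12.4% were past 1.5-fold higher in that class, 11.4% in Tgfbi/Ccl24 cells and 3.71% in T cells. In Tgfbi/Ccl24 cells 2 of 6 of these ligand genes were past 1.5-fold higher, Cd86 at 14.2 and 31.1 CPM, and in T cells 3 of 8. The partners of CD74 as a surface receptor differed little there: Mif, its ligand, was at 348 and 451 CPM, Cd44 at 601 and 675 and Cxcr4 at 106 and 149. In Tgfbi/Ccl24 cells Cxcr4 was at 116 and 236 CPM (1.02, 0.72 to 1.34). The class II receptor gene Lag3 was at 430.3 and 367 CPM in T cells (-0.23, -0.26 to -0.19). Of the other class II genes 4 of 6 were measured. H2-Oa and H2-Ob, which encode the DO inhibitor of H2-DM, had 0 control UMIs in Chil3-high macrophages (upper limit 4.90 CPM) and 5 and 1 in the Cd4cre library, while H2-Oa was at 105 and 139 CPM in Siglech cells.

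MHC class I genes, a neighbouring family on chromosome 17 that presents cytosolic peptides, moved less. In Chil3-high macrophages H2-K1 was at 1352 and 1644 CPM (0.28), H2-D1 at 1605 and 2053 (0.36) and B2m at 2330.1 and 2846 (0.29). The 9 class I comparison genes had a median log2 ratio of 0.30, and 1 was past 1.5-fold, the co-activator gene Nlrc5 (10.6 and 29 CPM, 1.45, 0.39 to 2.72). Over all genes 12.4% were past 1.5-fold higher in this class. In Chil3-low macrophages the class I median was 0.16, in Tgfbi/Ccl24 cells 0.15 and in T cells 0.22. The members' medians in the same classes were 0.62, 1.40 and 0.73. In Siglech cells the medians lay closer to each other, at 0.13 for class I and 0.22 for the members. In T cells 82.7% and 88.8% of the chain gene UMIs lay in the few class II-rich cells, so the T cell contrast rests largely on those barcodes.

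Marker levels of other myeloid types also differed between the libraries, not all in the same direction. The 8 monocyte markers summed to 6251 and 10645 CPM in Chil3-high macrophages, with 8 of 8 detected in both libraries, to 7296 and 11500 CPM in Chil3-low macrophages and to 8383 and 12854 CPM in Tgfbi/Ccl24 cells. These sums rest largely on genes that also define cell classes here. Without the class-defining Tgfbi and Ccl24 the 6 other monocyte markers summed to 2038 and 3116 CPM in Chil3-high macrophages, 2356 and 3113 CPM in Chil3-low macrophages and 2367 and 3234 CPM in Tgfbi/Ccl24 cells. The same 6 markers summed to 1823 and 2554 CPM in Siglech cells, where class II differed little, and to 1129 and 1125 CPM in T cells. The 8 alveolar markers summed to 41404 and 34651 CPM in Chil3-high macrophages, of which Chil3 alone made up 39958 and 33894 CPM and the 7 others 1446 and 757 CPM. Lyz2 was at 8092 and 6134 CPM there. In Chil3-low macrophages the 4 neutrophil markers summed to 2299 and 733 CPM. The part of these shifts in the class II levels was not tested. The 8 markers of conventional dendritic cells summed to less in the macrophages than in T cells (109.9 and 122 CPM), at 18.6 and 21.5 CPM in Chil3-high and 28.5 and 72.6 CPM in Chil3-low macrophages (63.3 to 87.7 CPM in Tgfbi/Ccl24 cells). Flt3, Zbtb46 and Xcr1 were at 0 in both macrophage classes of the control. More of these 8 markers were detected in the Cd4cre library, 3 and 7 in each macrophage class and 5 and 8 in Tgfbi/Ccl24 cells. In Cd4cre Chil3-low macrophages Xcr1 was the only one at 0. Markers at over 2-fold their T cell level numbered 1 and 2 in Chil3-high macrophages, 0 and 4 in Chil3-low macrophages and 3 and 4 in Tgfbi/Ccl24 cells. All 8 markers, Ccr7 among them, were also detected in T cells of both libraries. Whether T cells make part of this RNA themselves was not tested. Their level of these markers is therefore not read as a background for dendritic cell RNA. The part of dendritic cells in the class II levels was not tested. The B cell markers Cd79a, Ms4a1, Pax5 and Fcmr were at 0 in Chil3-high macrophages of both libraries.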

How the data were processed

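Lung cells of 2 libraries, 1 per group as given by the sample titles, were measured by 10x Genomics 5′ single-cell RNA sequencing (version 2 chemistry, per the labels). The deposited matrices hold raw UMI counts per gene and barcode without normalization, and the other deposited files hold gene names and barcodes (unit other). Reads were processed with Cell Ranger 4.0.0 on GRCm38, per the submitters' processing notes, with an annotation not given in the sources used here. GENCODE M21 held 32235 of 32285 feature IDs and supplied coordinates. The RefSeq table held promoters of H2-Aa, H2-Eb1, H2-DMa and H2-DMb1.

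Of 5729 and 6808 barcodes (41391255 and 38744058 UMIs), those with 500 genes or more and under 10% mitochondrial UMIs were kept. No doublet caller was run, so doublets must be taken as present. UMIs were summed per cell class and library and scaled to CPM. Intervals are exact Poisson for CPM, Clopper-Pearson for shares and exact conditional binomial for ratios, at 95%, for counting error only. A gene counted toward 1.5-fold with at least 50 UMIs over both sides. Shares were compared after thinning to 2000 UMIs. The interval and thinning code was tested on simulated data. Members, cell classes and gene lists were chosen with earlier results of these data known. All members are named. Genes of other lists could be named if the list held up to 6 genes, or if they were among the highest by counts or had the highest or lowest ratios of their list. Some genes that these rules select are not reported here. Brd2 and Tyrobp were named after their values were seen, as were Cd79b, Siglech and Tgfbi for the class II-rich T cells. Further settings varied the filter on cells, marker minimums, cells in more than 1 class, deep cells, other-lineage UMIs, cell weights and thinning. Python 3.11.15, numpy 2.4.6, scipy 1.17.1, pandas 2.3.3 and matplotlib 3.10.9 were used.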

Additional observations from a re-analysis of the deposited data

Results flagged for a closer look

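In B cells (14 control and 36 Cd4cre cells) 4 of the 7 members were lower in the Cd4cre library, where they were higher in the macrophages. The share of all genes that differed in this class was not computed, so the count is not read as a result about the members. The log2 ratio, Cd4cre over control, was -0.54 for H2-Aa (5656 and 3878 CPM), -0.39 for H2-Ab1 (3049 and 2331 CPM), -0.40 for H2-Eb1 (4074 and 3090.0 CPM) and -0.37 for Cd74 (27215 and 21091 CPM). The intervals of the other members included no difference, at -0.25 (-0.79 to 0.31) for H2-DMa, -0.67 (-1.74 to 0.47) for H2-DMb1 and 1.20 (-0.92 to 4.38) for Ciita. Plasmacytoid markers summed to 4276 and 1336 CPM in these B cells, and 2 of 14 and 2 of 36 also met the Siglech condition. The part of those cells in the difference was not tested. In cells with endothelial markers (15 and 46) Ciita had a log2 ratio of -2.79 (-5.06 to -0.72), from 6 and 4 UMIs, while the summed class II level there was higher in the Cd4cre library (5175 and 12739 CPM). Of these cells, 2 of 15 and 17 of 46 also met the Tgfbi/Ccl24 condition, and 3 Cd4cre cells the B cell condition. Endothelial markers summed to 12653 and 6582 CPM there, monocyte markers to 3716 and 7164 CPM and B cell markers to 0 and 746 CPM. The part of these other cells in the class II levels was not tested. With 1 library per group, the difference between these cell classes and the macrophages was not tested.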

How the results depend on the processing

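Summed class II ratios stayed above 0 under all 50 alternatives over the 5 cell classes, and 24 of these values stayed within the counting interval of the main value. The values below are log2 ratios, Cd4cre over control, each beside its main value. In Chil3-high macrophages (1.40) the ratio was 1.55 with doubled marker minimums, 1.74 without cells of more than 1 class, 1.29 without the deepest 5% of cells, 1.61 with equal weight per cell and 1.52 after thinning. In Chil3-low macrophages (0.53) it was 3.66 without cells of more than 1 class, which leaves 6 control cells, and 0.60 with equal weight. In Tgfbi/Ccl24 cells (1.28) it was 1.23 without the cell filter, 1.17 with doubled minimums, 0.73 without cells of more than 1 class, 1.23 without the deepest 5%, 1.33 without cells holding other-lineage UMIs, 1.23 with equal weight and 1.35 after thinning. In Siglech cells (0.21) it was 0.27, 0.12 and 0.37 with doubled minimums, without the deepest 5% and without other-lineage UMIs. In T cells (0.72) it was 0.20 without other-lineage UMIs, 0.57 with equal weight and 0.50 after thinning. Alternatives chosen after seeing the data gave 0.62 and 1.10 for Tgfbi/Ccl24 cells with Chil3 under 10 and at 10 or more, 1.84 for them with no condition on CD3, 0.12 and 0.27 for Siglech cells at minimums of 1 and 5 UMIs, and 0.25 for T cells without class II-rich cells. Members whose main interval excluded 0 changed sign in 2 of 344 values over all members: H2-Ab1 in Siglech cells at a minimum of 1 UMI (-0.037) and in T cells without other-lineage UMIs (-0.011). Where the main interval included 0, 7 more values changed sign. In T cells these were H2-DMb1 (0.36) at -2.27 (-5.48 to -0.072) without other-lineage UMIs and -0.64 without class II-rich cells, and H2-DMa (0.076) at -0.22 after thinning and -8.4e-05 with equal weight. In Siglech cells they were H2-DMa (0.12) at -0.022 without the deepest 5%, H2-DMb1 (0.15) at -0.30 after thinning and Ciita (-0.48) at 0.35 without other-lineage UMIs. Without cells of more than 1 class, 46 and 47 of 226 and 568 Chil3-high macrophages remained. Their ratios were 2.79 for H2-Aa, 2.37 for H2-Ab1, 3.52 for H2-Eb1, 1.80 (-0.16 to 4.30) for H2-DMa, 0.26 for H2-DMb1 and 1.27 for Cd74. The cause was not tested. No paired analysis was possible because the control and the Cd4cre group have 1 library each. Depth limits Ciita most, with 1 to 5 control UMIs in the macrophage, Tgfbi/Ccl24 and Siglech classes, and the 34 control Chil3-low macrophages limit every value of that class.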

Other observations

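Over 14 points (7 cell classes in 2 libraries) genes outside the lists whose log2(CPM + 10) ran most like the summed class II level, among 6003 genes, included Ly86 (Pearson's r 0.93), which encodes MD-1, Plcg2 (0.93), a phospholipase gene of B cell and myeloid receptor signalling, Wdfy4 (0.91), a gene known for cross-presentation in dendritic cells and Kctd12 (0.90). The points share libraries and some cells, so these values are descriptions. Ly86 was at 1.71 and 4.50 CPM in T cells, 112 and 158 CPM in Chil3-high macrophages, 256 and 202 CPM in Chil3-low macrophages and 524 and 706 CPM in Siglech cells. The 4 control cells with Flt3, a dendritic cell receptor gene, had a median of 750.0 class II UMIs per 10000, and the 2 in the Cd4cre library 320.3.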
